A study of Mus musculus with 12 samples.

Results

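The aldosterone response and the epithelial sodium channel of the kidney were followed through 9 genes: the mineralocorticoid receptor gene Nr3c2, the 2 corticosteroid-converting enzymes Hsd11b2 and Hsd11b1, the kinase Sgk1, the ubiquitin ligase Nedd4l, the protease Prss8 and the channel subunits Scnn1a, Scnn1b and Scnn1g. They were chosen by their known place in the pathway, with earlier results of these data known. They are 9 of 55401 gene identifiers in the files. Whole-kidney mRNA was sequenced from male C57BL6 mice, 6 given vehicle and 6 given SK-124, with 1 library per mouse. The mice were 8 weeks old and received 1 intraperitoneal injection, either of SK-124 at 40 mg/kg or of vehicle, 15% 2-hydroxypropyl-beta-cyclodextrin. SK-124 is a small molecule that inhibits the salt-inducible kinases SIK2 and SIK3. The time between injection and collection was not given separately for these RNA-Seq samples. The comparison asks which transcripts of the kidney changed with a single dose of the inhibitor.

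Aldosterone crosses into cells of the distal nephron and collecting duct and binds the mineralocorticoid receptor, which moves to the nucleus and drives transcription. Cortisol and corticosterone bind the same receptor, and the enzyme encoded by Hsd11b2 inactivates them in these cells, while the enzyme encoded by Hsd11b1 regenerates active hormone in other cells. Among the early transcripts is Sgk1, whose kinase phosphorylates the ligase encoded by Nedd4l and so keeps it from removing sodium channels from the cell surface. The channel itself is built from alpha, beta and gamma subunits and is opened further when proteases such as prostasin, the product of Prss8, cut it.

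Of the 9 genes, 2 rose and 3 fell with SK-124. Sgk1 increased 4.05-fold and Nedd4l 2.08-fold. Nr3c2 fell by 37.3%, Hsd11b2 fell by 21.8% and Prss8 fell by 19.8%. The 3 channel subunits and Hsd11b1 did not pass the test, which was an adjusted p under 0.05 from edgeR's quasi-likelihood test over 14159 genes. Across all genes tested, 24.4% passed, 10.8% higher and 13.5% lower with SK-124, so that changes were common in these kidneys. All 9 genes passed the filter on low counts. Levels are given in CPM, counts scaled to library size by the TMM method, unless TPM is named. In 4 of the 9, the mice given vehicle and those given SK-124 did not overlap, as was so for 13% of all genes.

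**Figure D1:**
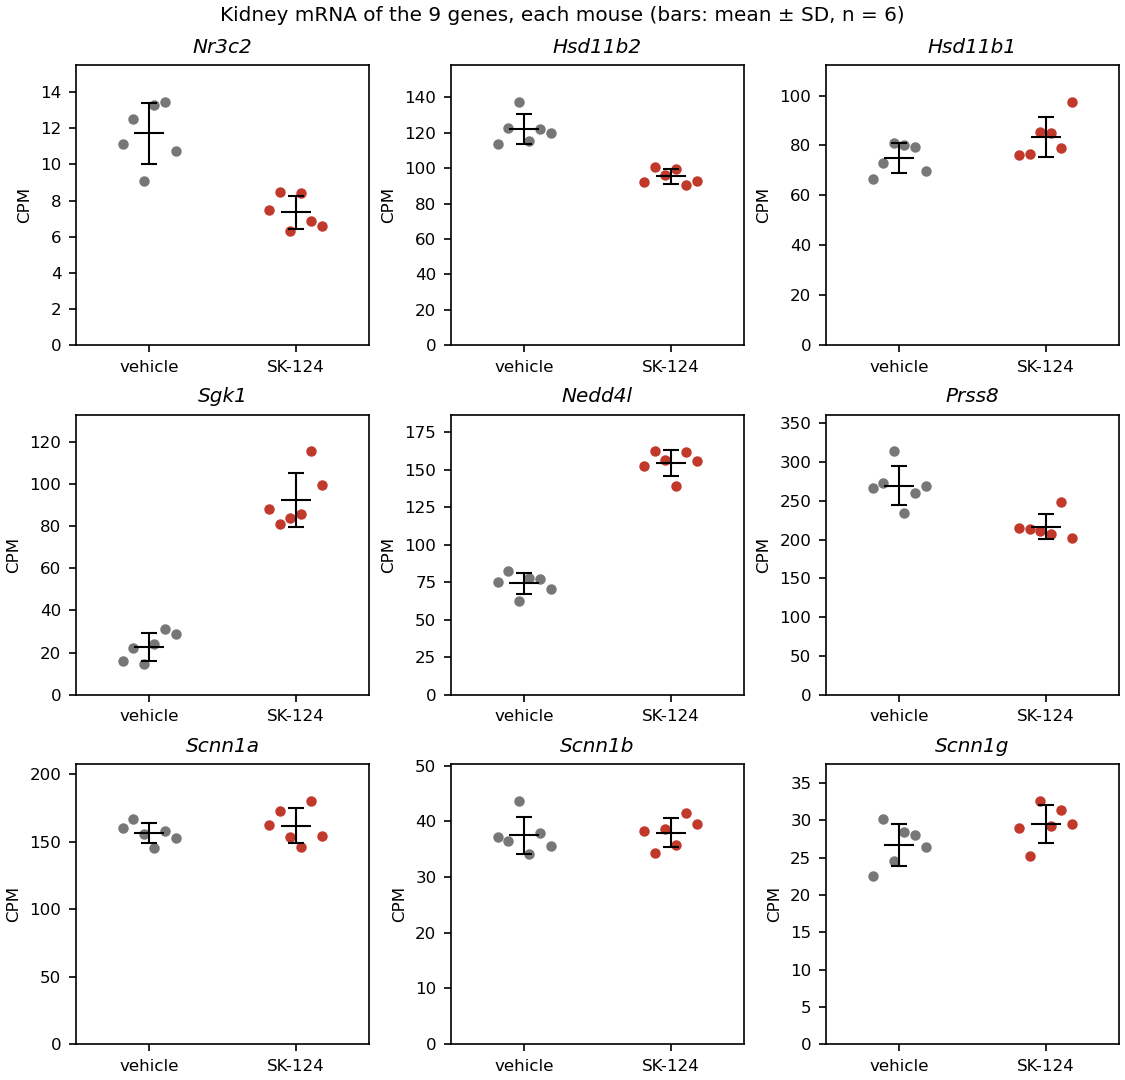
CPM (y axis from 0) of each gene in every mouse, with vehicle in gray, SK-124 in red, and bars at the mean ± SD of 6 mice. The groups are apart for Sgk1, Nedd4l, Nr3c2 and Hsd11b2, touch for Prss8 and lie over each other for the 3 subunits.

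Total expected counts ranged from 19244227 to 19771802 per mouse, so depth differed little. Of these counts, the 10 most abundant genes took 44.4% to 46.8% in SK-124 mice 1 to 3, 38.6% to 40.2% in SK-124 mice 4 to 6, and 39.9% to 43.2% in the vehicle mice. Each SK-124 trio, a split chosen after seeing the data, was therefore also compared alone with the 6 vehicle mice. All 5 changes passed the test with either trio, in edgeR as before. Both comparisons used the same vehicle mice and are parts of the main comparison, so they are not independent of it. All 8 marker genes of principal cells, the cells that carry the channel, passed the filter in these kidneys. Their summed level was 146 to 233 TPM (transcript abundance scaled to length and to a fixed library total) in vehicle mice and 124 to 269 TPM in SK-124 mice. Among these 8 markers, 1 rose, 1 fell and 6 did not pass the test. The share that passed was thus close to the 24.4% of all genes. Aqp2, the vasopressin-regulated water channel, rose by 0.75 on the log2 scale with overlapping groups (edgeR, adjusted p = 0.000852). Avpr2, the vasopressin receptor, fell by 1.17, and its groups did not overlap (edgeR, adjusted p = 4.96e-07). These 2 were named after their values were seen, and the part of principal cells in the results below was not tested. In whole kidney, a smaller number of cells of a type and less RNA per cell cannot be told apart.

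Nr3c2 (chromosome 8, 76899442 to 77245012, plus strand, mm10) encodes the mineralocorticoid receptor. In vehicle mice its level ranged from 9.09 to 13.5 CPM with a median of 11.8, and in SK-124 mice from 6.33 to 8.47 CPM with a median of 7.17. Every SK-124 mouse was below every vehicle mouse, with a log2 fold change of -0.67 ± 0.10 (SE, adjusted p = 0.000127, edgeR). It was the least abundant of the 9 genes, with 113 to 284 expected counts per mouse. It is overlapped by 3 annotated genes, 1 on its own strand and 2 on the other.

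Hsd11b2 (chromosome 8, 105518755 to 105523988, plus strand) encodes the enzyme that inactivates corticosterone in aldosterone-responsive cells. Its level was 114 to 138 CPM in vehicle mice, with a median of 121, and 90.7 to 101 CPM in SK-124 mice, with a median of 94.5. The groups did not overlap. Vehicle mouse 3 stood above the others of its group, at 138 CPM. The log2 fold change was -0.35 ± 0.05 (SE, adjusted p = 9.99e-05, edgeR).

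Hsd11b1 (chromosome 1, 193221634 to 193264075, minus strand) encodes the enzyme that works in the opposite direction. It lay between 66.5 and 80.9 CPM in vehicle mice, with a median of 76.1, and between 76.2 and 97.5 CPM in SK-124 mice, with a median of 82.1. The groups overlapped. The log2 fold change was 0.15, with a 95% interval of 0.01 to 0.30, and the adjusted p was 0.123 in edgeR. The interval of this single gene leaves out 0, but the value did not pass once adjusted over all genes. Lamb3 and 2 other annotated genes overlap Hsd11b1, and the use of strand in counting is not given in the sources used here.

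The whole-kidney transcripts of these 2 genes were compared within each mouse as the ratio of their TPM, a unit scaled to length. The 2 enzymes act in different cells, so this ratio is not a balance within a cell. Only Hsd11b2 passed the test by itself. Hsd11b2 to Hsd11b1 was 0.856 to 1.01 in vehicle mice and 0.551 to 0.761 in SK-124 mice, so that every SK-124 mouse was lower. The difference of the log2 ratio was -0.53 (exact permutation of the group labels, two-sided, p = 0.00216, which is the lowest value 6 against 6 allows, and 0.00649 adjusted over the 6 ratios tested). The receptor genes behaved otherwise. Nr3c1, the glucocorticoid receptor gene, fell by 0.62 on the log2 scale (edgeR, adjusted p = 2.98e-05), close to the change of Nr3c2. The ratio of Nr3c2 to Nr3c1 was 0.189 to 0.287 in vehicle mice and 0.179 to 0.241 in SK-124 mice. That ratio differed by -0.16 on the log2 scale, within the spread between mice (exact permutation p = 0.225, adjusted 0.403).

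Sgk1 (chromosome 10, 21882184 to 21999903, plus strand) encodes the serum- and glucocorticoid-regulated kinase. Its level ranged from 14.7 to 31.3 CPM in vehicle mice, with a median of 22.9, and from 81.2 to 116 CPM in SK-124 mice, with a median of 87.2. The lowest SK-124 mouse was above the highest vehicle mouse. The log2 fold change was 2.02 ± 0.16 (SE, adjusted p = 4.86e-08, edgeR), the largest of the 9. Of the 9 genes, Sgk1 also had the widest relative spread among vehicle mice, with a coefficient of variation of 29.3%, against 4.62% for Scnn1a.

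The annotation holds 13 transcripts of Sgk1, and RefSeq places 6 start sites of this gene. The effective length that the authors' quantification assigned to Sgk1 ranged from 1056 to 2058 bases in vehicle mice and from 1275 to 1459 in SK-124 mice. The mean length was 1404 bases in vehicle mice and 1347 in SK-124 mice. In TPM, which depends on this length and on another scaling of the libraries, the ratio of the group means was 3.49. Sgk1 TPM was 16.6 ± 8.44 in vehicle mice and 57.8 ± 14.6 in SK-124 mice (SD, n = 6 each).

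RefSeq promoter windows (250 bases before to 50 after each start, GRCm38.p6) were found for 5 of the 9 genes, namely Sgk1, Scnn1b, Scnn1g, Nr3c2 and Hsd11b1. They were searched on both strands for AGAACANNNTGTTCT, the palindrome bound by the mineralocorticoid and glucocorticoid receptors, for the repeated unit AGAACA within it, for the cAMP response element TGACGTCA and for the TATA box TATAAA. The palindrome occurred in 3 of 32851 windows (0.00913%), 1 of them at a start site of Sgk1, the next to last. AGAACA, which is part of the palindrome, occurred in 18.97% of all windows and in 3 of the 6 of Sgk1. TATAAA occurred in 13.6% of windows and in 2 of Sgk1, and TGACGTCA, in 1.79% of all windows, was in none of the 5 genes' windows. The windows of Scnn1b, Scnn1g, Nr3c2 and Hsd11b1 held none of these letters. A match is a description of letters and shows no binding. Both sequences below are the 250 bases before a Sgk1 start, 5′ to 3′ on the plus strand, shown because Sgk1 changed most and because they hold the palindrome and a TATA box, each in capitals.
Sgk1 next-to-last start, chr10:21993640-21993889: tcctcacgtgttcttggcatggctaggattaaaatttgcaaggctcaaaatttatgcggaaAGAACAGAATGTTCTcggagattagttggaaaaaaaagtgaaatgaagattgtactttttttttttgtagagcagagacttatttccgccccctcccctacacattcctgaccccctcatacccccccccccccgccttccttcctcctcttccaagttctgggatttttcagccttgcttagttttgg
Sgk1 last start, chr10:21994416-21994665: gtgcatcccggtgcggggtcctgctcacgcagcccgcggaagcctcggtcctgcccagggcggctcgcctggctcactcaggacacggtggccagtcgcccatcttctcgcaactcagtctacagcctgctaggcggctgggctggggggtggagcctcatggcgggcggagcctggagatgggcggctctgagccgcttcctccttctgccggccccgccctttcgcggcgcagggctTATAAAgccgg
Both stretches lie within the annotated span of Sgk1 and hold 0 bases of its annotated exons. The palindrome spans 21993701 to 21993715. Its last base is 175 bases before the next-to-last start and 951 bases before the last. The gene tables sum over transcripts, so they do not say which start was used.

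Nedd4l encodes the ligase that marks the channel for removal. It was at 62.5 to 82.4 CPM in vehicle mice, with a median of 76.3, and at 139 to 162 CPM in SK-124 mice, with a median of 156. The groups were far apart, with a log2 fold change of 1.06 ± 0.06 (SE, adjusted p = 2.48e-09, edgeR). Its paralog Nedd4 was at 201 ± 12.7 CPM in vehicle mice and 191 ± 11.4 CPM in SK-124 mice (SD, n = 6 each) and did not pass the test (log2 fold change -0.07, edgeR adjusted p = 0.374). In TPM, Nedd4l to Nedd4 was 0.485 to 0.617 in vehicle mice and 1.11 to 1.34 in SK-124 mice. Nedd4 was thus the more abundant of the pair in each vehicle mouse and Nedd4l in each SK-124 mouse. The log2 ratio differed by 1.16 (two-sided exact permutation test, p = 0.00216, adjusted 0.00649).

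Prss8 (chromosome 7, 127925716 to 127930104, minus strand) encodes prostasin, a membrane-anchored serine protease. It ranged from 234 to 314 CPM in vehicle mice, with a median of 268, and from 203 to 248 CPM in SK-124 mice, with a median of 213. SK-124 mouse 5, at 248 CPM, was the only one of its group above the lowest vehicle mouse. The log2 fold change was -0.32 ± 0.07 (SE, adjusted p = 0.00204, edgeR). Kat8 overlaps it on the other strand.

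Scnn1a (chromosome 6, 125320659 to 125344943, plus strand) encodes the alpha subunit, the one that aldosterone is known to raise in the kidney. Its level was 145 to 167 CPM in vehicle mice, with a median of 157, and 146 to 180 CPM in SK-124 mice, with a median of 158. The ranges lay over each other, at a log2 fold change of 0.05 with a 95% interval of -0.07 to 0.17 (edgeR, adjusted p = 0.602).

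Scnn1b and Scnn1g, the beta and gamma subunit genes, are neighbors on chromosome 7, 96562 bases apart. Scnn1b (121865038 to 121918514, plus strand) was at 34.1 to 43.7 CPM in vehicle mice, with a median of 36.9, and at 34.3 to 41.5 CPM in SK-124 mice, with a median of 38.5. Its log2 fold change was 0.02, with a 95% interval of -0.12 to 0.16 (edgeR, adjusted p = 0.873). Cog7 overlaps it on the other strand. Scnn1g (121734479 to 121768475, plus strand) was at 22.5 to 30.2 CPM in vehicle mice, with a median of 27.2, and at 25.2 to 32.6 CPM in SK-124 mice, with a median of 29.3. Its log2 fold change was 0.14, with a 95% interval of -0.02 to 0.30 (edgeR, adjusted p = 0.187).

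For all 3 subunits the groups overlapped. The 95% intervals reach from -4.97% to 12.4% for Scnn1a, from -7.96% to 11.5% for Scnn1b and from -1.06% to 23.5% for Scnn1g. The sign of these small differences was not fixed. When libraries were scaled to their totals alone, which moves the median of all genes from -0.01 to -0.12, Scnn1a was at -0.07 and Scnn1b at -0.09, while Scnn1g stayed at 0.03.

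**Figure D2:**
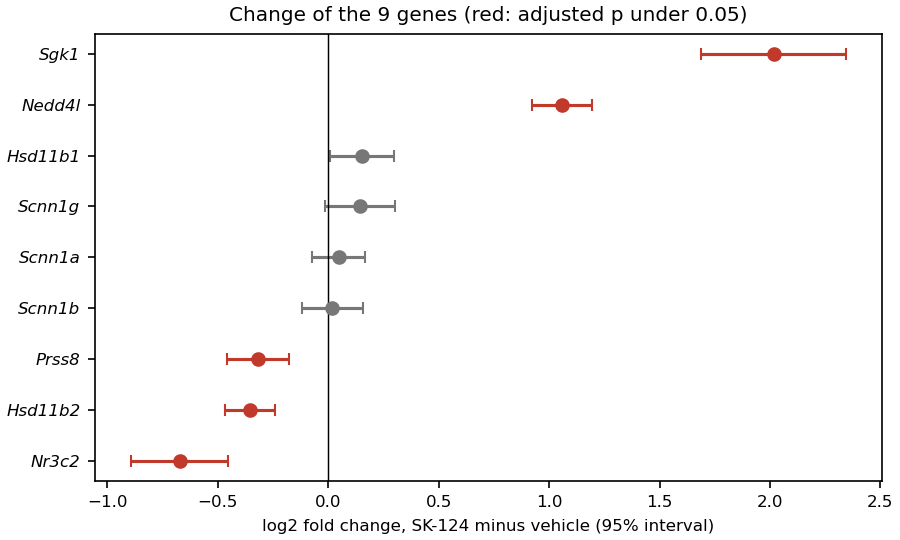
Log2 fold change (x axis) of the 9 genes, SK-124 minus vehicle, with 95% intervals from edgeR, and red for an adjusted p under 0.05. Sgk1 (2.02) and Nedd4l (1.06) lie to the right, Nr3c2, Hsd11b2 and Prss8 between -0.67 and -0.32, and the 3 subunits near 0.

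The makeup of the channel's transcripts was also compared within mice. In TPM, Scnn1a to Scnn1b was 2.47 to 3.16 in vehicle mice and 2.71 to 3.42 in SK-124 mice. Scnn1a to Scnn1g was 4.34 to 6.03 and 4.0 to 5.80, and Scnn1b to Scnn1g was 1.47 to 2.18 and 1.45 to 1.70, in the same order of groups. The alpha transcript was the most abundant and the gamma transcript the least in every mouse. None of the 3 ratios passed an exact permutation test, with differences on the log2 scale of 0.02, -0.10 and -0.12 and adjusted p of 0.814, 0.403 and 0.403.

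**Figure D3:**
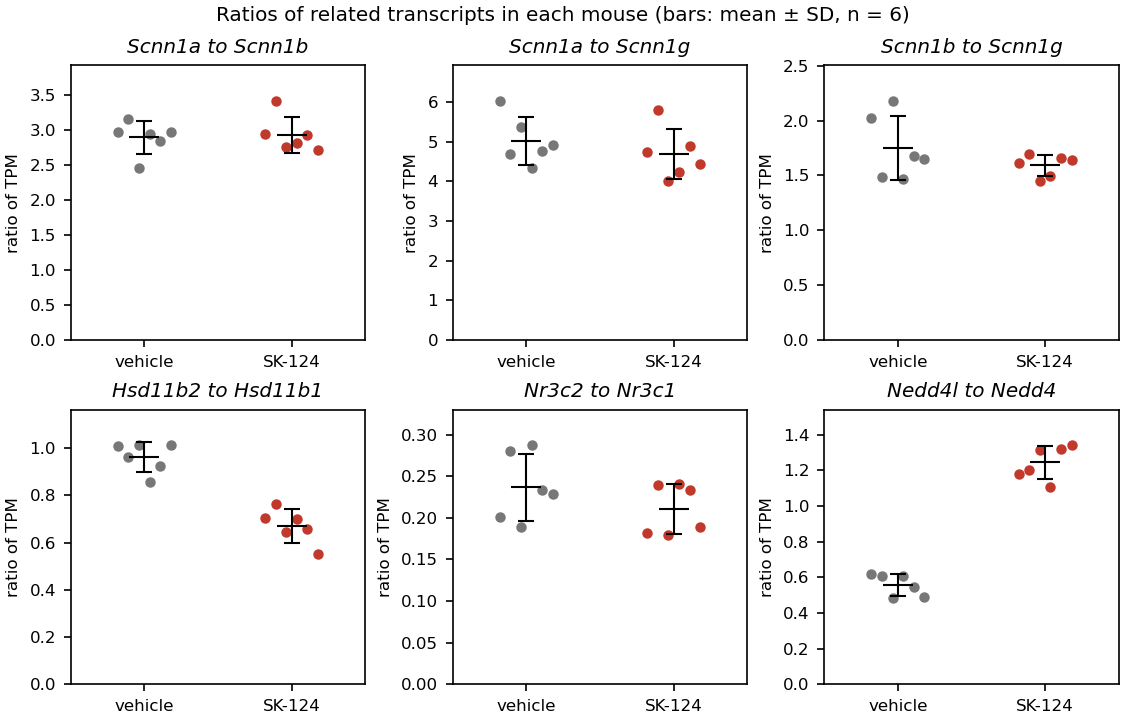
Ratio of TPM of 6 pairs of related transcripts (y axes from 0) in every mouse, with vehicle in gray, SK-124 in red, and bars at the mean ± SD of 6 mice. Hsd11b2 to Hsd11b1 and Nedd4l to Nedd4 separate the groups, at medians of 0.985 and 0.680 and of 0.574 and 1.26, while the other 4 overlap.

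Whether the subunits vary together from mouse to mouse was examined on log2(CPM + 0.5) centered within each group, over 12 mice. Pearson's r was 0.24 for Scnn1a with Scnn1b (Spearman's rho 0.13), -0.12 for Scnn1a with Scnn1g (rho -0.18) and 0.05 for Scnn1b with Scnn1g (rho 0.10). In permutation tests within groups, the p of r was 0.442, 0.71 and 0.887 and that of rho 0.702, 0.570 and 0.757. Adjusted over the 3 pairs, they were 0.887 for every r and 0.757 for every rho. Without the 2 mice farthest from the median of the first gene, r was -0.12, -0.36 and 0.05. On log2(TPM + 1), r was 0.76, 0.59 and 0.62 for the 3 pairs in the same order (permutation test, adjusted p = 0.0281, 0.0717 and 0.0717). All 3 pairs were thus higher on this scale, not Scnn1a with Scnn1b alone, and a relation between the subunits depends on the scale.

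Ordered by mean TPM in vehicle mice, Prss8 was the most abundant of the 9 (158 ± 14.7), followed by Hsd11b1 (71.5 ± 4.97), Hsd11b2 (68.6 ± 4.8), Scnn1a (43.9 ± 3.64), Nedd4l (19.9 ± 2.76), Sgk1, Scnn1b (15.2 ± 1.24), Scnn1g (8.83 ± 1.12) and Nr3c2 (2.29 ± 0.50), each as mean ± SD of 6 mice. The ranges of Hsd11b1 and Hsd11b2 overlapped, as did those of Nedd4l and Sgk1 and of Sgk1 and Scnn1b, so these neighbors did not differ beyond their spread. In SK-124 mice Sgk1 followed Prss8 and Hsd11b1, and Nedd4l, at 38.0 ± 4.70 TPM, came within the range of Scnn1a, at 40.9 ± 5.56 TPM.

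Around this pathway, 50 other genes were grouped into 5 lists by their known roles, and 49 of them passed the filter on low counts. The lists were written with earlier results of these data known, so their shares beside all genes are descriptions, not tests. In edgeR, 17 rose, 3 fell and 29 did not pass the test, so that 40.8% passed, beside 24.4% of all genes. Tmprss4 was below the filter.

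The first list holds transcripts known to be induced by mineralocorticoid or glucocorticoid hormone. Of 12 in the list, 9 rose (beside 10.8% of all genes) and 3 did not pass. The median log2 fold change of the list was 1.18, against -0.01 over all genes. Zbtb16, a transcription factor, went from 2.19 ± 0.87 to 74.5 ± 9.16 CPM (SD, n = 6 each). Tsc22d3, which encodes the protein GILZ, went from 10.4 ± 1.96 to 80.6 ± 11.2 CPM, and Per1, a clock gene, from 17.1 ± 6.25 to 91.7 ± 13.5 CPM. Their log2 fold changes were 5.09, 2.95 and 2.42 (edgeR, adjusted p = 3.48e-12, 7.90e-12 and 3.23e-08). In all 3 the groups did not overlap. At the other end of those that passed, Klf9, a transcription factor, Lcn2, an iron-carrier protein gene, and Edn1, the endothelin-1 gene, rose by 1.03, 0.88 and 0.87 (edgeR, adjusted p = 7.93e-10, 0.00207 and 0.000596). Lcn2 and Edn1 were low, at means of 2.55 and 1.35 CPM in vehicle mice, and the groups overlapped for Lcn2. Most of these genes respond to glucocorticoids as well as to aldosterone, and neither hormone was measured in these files. The adrenal markers Cyp11b2, the aldosterone synthase gene, and Cyp21a1 were at 0 in all 12 mice, and the summed level of 8 adrenal markers was 0.13 to 0.62 TPM in vehicle mice and 0.26 to 0.46 TPM in SK-124 mice.

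In the list for the receptor step, 2 of 7 genes rose and 1 fell, 42.9% beside 24.4% of all genes. Fkbp5, a co-chaperone of steroid receptors and itself hormone-induced, also stands in the list above and rose from 28.8 ± 4.43 to 126 ± 9.07 CPM. H6pd, which supplies the cofactor for the Hsd11b1 enzyme, rose from 174 ± 10.6 to 202 ± 12.8 CPM with overlapping groups (log2 fold change 0.21, edgeR adjusted p = 0.0107). Nr3c1 fell from 60.1 ± 5.22 to 39.2 ± 5.17 CPM. The chaperone genes Hsp90aa1 and Hsp90ab1 were at log2 fold changes of 0.00 and 0.00 and did not pass the test.

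In the list for SGK1 and Nedd4 signaling, 4 of 14 genes rose and 1 fell, 35.7% beside 24.4% of all genes. Ndrg1, whose protein is a substrate of SGK1, rose by 0.50 on the log2 scale (edgeR, adjusted p = 0.000320). Mtor and Rictor, which encode parts of the complex that activates SGK1, rose by 0.42 and 0.38 (edgeR, adjusted p = 0.000444 and 0.00333). Wnk1, a kinase gene upstream of sodium chloride cotransport, rose by 0.37 (edgeR, adjusted p = 0.00470). Wnk4, a kinase gene of the distal tubule, fell by 0.55 (adjusted p = 2.02e-05). For these 5 the groups did not overlap. The paralogs Sgk2 and Sgk3 were at -0.12 and 0.00 on the log2 scale and did not pass (edgeR, adjusted p = 0.206 and 0.988). Nor did Mlst8 and Mapkap1, for other parts of the complex of Mtor and Rictor, at -0.09 and 0.02 (edgeR, adjusted p = 0.414 and 0.816).

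Of the proteases and inhibitors that act on the channel, 2 of 8 rose and 1 fell, 37.5% beside 24.4% of all genes. Tmprss2, a membrane serine protease, rose from 84.6 ± 6.92 to 136 ± 11.5 CPM (log2 fold change 0.68, edgeR adjusted p = 9.39e-07). Furin, which cuts the alpha and gamma subunits in the Golgi, rose by 0.17 (edgeR, adjusted p = 0.0296) and Plau, the urokinase gene, fell by 0.36 (edgeR, adjusted p = 0.0384), both with overlapping groups. The count of 3 became 1 without vehicle mouse 1, without vehicle mouse 5, without SK-124 mouse 6, or with either SK-124 trio alone.

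Of the sodium and potassium transport genes of the distal nephron, 1 of 9 rose and 8 did not pass the test in edgeR, 11.1% beside 24.4% of all genes. DESeq2 called 3 of them. Slc12a3, the thiazide-sensitive cotransporter gene, and Kcnj1, the potassium channel gene, were at 0.04 and -0.12 and did not pass. The count of 1 became 2 without vehicle mouse 5, without SK-124 mouse 4 or without SK-124 mouse 6.

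**Figure D4:**
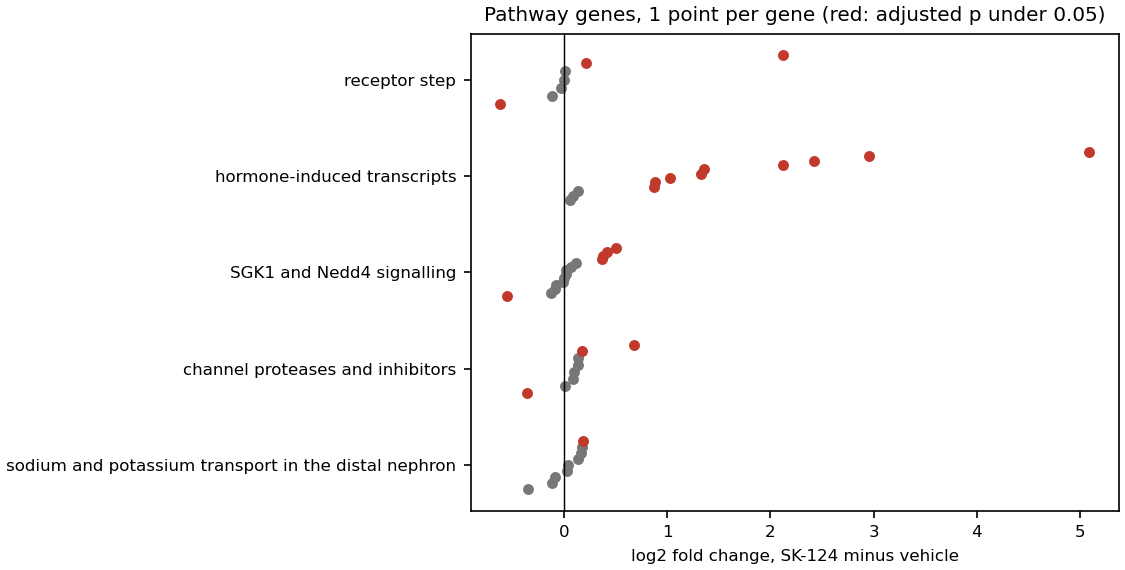
Log2 fold change (x axis), SK-124 minus vehicle, of the tested genes of the 5 pathway lists (rows), with 1 point per gene and red for an adjusted p under 0.05. The hormone-induced transcripts spread to the right as far as 5.09, while the other lists sit mostly between -0.62 and 0.68, Fkbp5 apart.

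To place each gene among the rest, the tested genes averaging 1 CPM or more were ranked by Pearson's r with it over the 12 mice, on log2(CPM + 0.5). The values are descriptive, and for genes that changed, r rests largely on the difference between groups. Nearest to Sgk1 were Per1 (0.98), Glul (0.98) and Retreg1 (0.97). Nearest to Nedd4l were Ints2 (0.99), Retreg1 (0.99) and Glul (0.99), so that Retreg1 and Glul stood by both. Nearest to Nr3c2 were Cbx6 (0.97), Pid1 (0.97) and Trim35 (0.97). Hsd11b2 went with Jup (0.97), Lmo4 (0.97) and Samd1 (0.96), and Prss8 with Neurl4 (0.96), Mgat1 (0.95) and Kif12 (0.95).

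Among the genes that did not pass the test, the nearest were further off. Scnn1a had Pop1 (0.87), Naa15 (0.86) and Ap3b1 (0.86), Scnn1b had Pgam2 (0.94), Mrps17 (0.91) and 0610012G03Rik (0.89), and Scnn1g had Tmem248 (0.90), Slx4 (0.89) and Slc44a3 (0.83). Hsd11b1 had Btbd1 (0.87), Ifitm3 (0.86) and Ccdc71l (0.86). No subunit was among the 3 nearest of another.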

How the data were processed

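Members and gene lists were chosen with earlier results of these data known. Per the labels, whole-kidney mRNA was sequenced on a BGISEQ500. The submitters' processing notes name STAR 2.7.2b, RSEM 1.3.0 and mm10; annotation and use of strand are not given in the sources used here. The authors deposited, for each mouse, expected counts (estimated reads per gene, without normalization), with the authors' TPM and FPKM, scaled to effective length and library size. Expected counts were rounded, scaled by TMM, filtered with filterByExpr and tested with edgeR 4.0.16's quasi-likelihood test without a block (R 4.3.3), with Benjamini-Hochberg adjustment over 14159 genes. CPM are TMM-scaled. DESeq2 1.42.0 and limma 3.58.1 on log2 of TPM or FPKM were alternatives. Scripts were tested on simulated data. Ratios and correlations used scipy 1.17.1, with 100000 permutations for correlations. Named list genes are, per list, up to 3 with the largest and 3 with the smallest log2 fold change that passed; others named were picked after their values were seen. The values of some list genes are not reported here. The labels give no batch. Libraries of a group differed beyond counting noise (chi-square per degree of freedom 4.69 to 32.1). Symbols were found for 55141 of 55401 identifiers; coordinates are GENCODE M21's (GRCm38), for identifiers matched with version. Promoter sequences are from RefSeq.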

Additional observations from a re-analysis of the deposited data

Results flagged for a closer look

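In 8 of 66 sets of 6 values examined, a single mouse stood apart from the others of its group by Dixon's test. For a single set, chance does so in about 1 set in 20. The sets share the same 12 mice and are not independent, so the count was not tested against that rate. Among the aldosterone genes, Hsd11b2 was at 138 CPM in vehicle mouse 3, against 114 to 123 in the others. Prss8 was at 248 CPM in SK-124 mouse 5, against 203 to 215 in the others. The log2 TPM ratio of Scnn1a to Scnn1b was 1.77 in SK-124 mouse 2, against 1.44 to 1.56.

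Among the pathway genes, Tsc22d3 was at 14.2 CPM in vehicle mouse 5, against 8.84 to 10.2, and at 102 CPM in SK-124 mouse 6, against 70.7 to 79.6. Vehicle mouse 3 was low for Rictor, at 11.3 CPM against 16.1 to 17.0, for Wnk1, at 239 CPM against 318 to 361, and for Tmprss2, at 70.8 CPM against 85.1 to 89.1. Without any 1 of these mice, Hsd11b2 and Prss8 still passed the test. Across all genes tested, the library of vehicle mouse 3 differed most from the others of its group (chi-square per degree of freedom 20.8 to 26.8). Other vehicle pairs were at 4.69 to 9.13, and pairs of SK-124 mice at 5.89 to 32.1. Without vehicle mouse 3, 3942 genes were called, against 3453 with all mice.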

How the results depend on the processing

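The 5 genes that passed the test did so under each of the 25 other settings, with Sgk1 between 1.86 and 2.14, Nedd4l between 0.90 and 1.09, Nr3c2 between -0.84 and -0.56, Hsd11b2 between -0.50 and -0.32 and Prss8 between -0.47 and -0.27. Prss8 had adjusted p up to 0.0406. The 4 others passed under none. On log2(TPM + 1), log2(TPM + 0.1), log2(FPKM + 1) and library totals alone, Scnn1a was at -0.105, -0.107, -0.0676 and -0.0671, and Scnn1b at -0.117, -0.125, -0.0820 and -0.0911. Scnn1g was at -0.00491 and -0.00605 on the 2 TPM scales. With 1 mouse left out, Scnn1b ranged from -0.00800 to 0.0664, and the log2 ratio of Scnn1a to Scnn1b from -0.0279 to 0.0439. Scnn1b was at -0.0149 with SK-124 mice 1 to 3 only. On log2(TPM + 1), r was 0.76 for Scnn1a with Scnn1b (permutation test, adjusted p = 0.0281). It was 0.59 for Scnn1a with Scnn1g and 0.62 for Scnn1b with Scnn1g. Protease calls went from 3 to a range of 1 to 3 with 1 mouse left out, and were 1 with SK-124 mice 1 to 3 and 1 with mice 4 to 6. Transport calls were 3 with DESeq2, 3 with DESeq2's size factors, 0 without the filter (edgeR), 2 with the replicate block, 2 and 0 with SK-124 mice 1 to 3 and 4 to 6, and 1 to 2 with 1 mouse left out. All genes called were 2298 with SK-124 mice 1 to 3 only, chosen after seeing the data, as was mice 4 to 6; fewer mice entered. Scaling to library totals made 20.3% of calls higher, against 44.5%. Replicate numbers did not pair the mice (r of same-numbered deviations -0.13 to 0.22), and with the replicate block 5 of the 9 genes passed, Sgk1 at 2.05. The cause of these shifts was not tested. Depth limits Nr3c2 most, at 113 to 284 counts.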

Other observations

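Marker genes of other cells of the kidney, fixed as lists beside the pathway lists, were read in the same test. Genes are named here after their values were seen. Of 7 intercalated cell markers, 3 rose and 1 fell in edgeR, 57.1% beside 24.4% of all genes. Slc26a4, which encodes pendrin, rose by 0.27 on the log2 scale, Foxi1, a transcription factor of these cells, by 0.33, and Slc4a9, a bicarbonate transporter gene, by 0.36 (edgeR, adjusted p = 0.0167, 0.0220 and 0.00102). Slc4a1, the basolateral chloride-bicarbonate exchanger of acid-secreting cells, fell by 0.59 (edgeR, adjusted p = 0.000123). Their summed level was 92.0 to 111 TPM in vehicle mice and 85.1 to 131 TPM in SK-124 mice.

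In each of the marker lists that follow, the share of genes that passed was close to or below the 24.4% of all genes. Sgms2 was the 1 of 5 markers of the distal convoluted tubule that rose, by 0.56, and Cldn16 the 1 of 4 of the thick ascending limb, by 0.50. Slc13a3 was the 1 of 7 of the proximal tubule that changed, and it fell by 0.27. The proximal tubule list summed to 2490 to 3002 TPM in vehicle mice and 2041 to 2560 TPM in SK-124 mice. TPM scales libraries otherwise than TMM. In the TMM-scaled test the median log2 fold change of this list was -0.06, and 6 of its 7 genes did not pass. Cd79a, a B cell gene, was the 1 of 4 tested leukocyte markers that changed, and it fell by 1.75 from a mean of 1.10 CPM. The 5 red blood cell genes had log2 fold changes from -0.27 to -0.14 with edgeR adjusted p from 0.445 to 0.711. The single adrenal marker that passed the filter, Star, was at 0.21 (edgeR, adjusted p = 0.646).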
